A study of Mus musculus with 6 samples.

Results

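The expression of 9 complement genes, C1qa, C1qb, C1qc, C3, C3ar1, C5ar1, C4b, Cfp and Cfb, was examined in cultured mouse microglia with and without deletion of REV-ERBα, the nuclear receptor encoded by Nr1d1 that represses transcription as part of the circadian clock. The genes were chosen by name as components and receptors of complement, and they are 9 of the 55487 genes in the count files. RNA came from 3 Cre- and 3 Cre+ cultures, with 1 library each. Every culture carried the floxed Nr1d1 allele (CAG::CreERT2; Nr1d1 fl/fl pups), so the controls differed by lacking Cre. All 6 were given 4-hydroxytamoxifen (4-OHT), the ligand that lets CreERT2 act on the loxP sites, at 1.5 μM for 2 days per the labels, while the methods of the study give a shorter exposure for this line. The CAG promoter is active in nearly all cell types and is not specific to microglia. The cells were cortical microglia collected as floating cells from mixed glial cultures of pups aged 1 to 3 days, after growth with the cytokine GM-CSF. The source data of the study describe the cultures as male.

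Complement is a cascade of secreted proteins that tags material for removal. C1q starts the classical pathway, C4 and C2 carry it forward, factor B and properdin serve the alternative pathway, and all routes meet at C3. Fragments of C3 and C5 then act on cells through receptors such as C3AR1 and C5AR1, while the integrin CR3, made of the products of Itgam and Itgb2, binds deposited C3 fragments. In the brain, microglia are a main source of C1q, and C1q, C3 and CR3 are known for their part in the removal of synapses during development and in disease models.

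The libraries held between 87545868 and 110909129 counts on genes. Levels are given as CPM, the counts a gene would have in a library of 1000000, adjusted by TMM (a scaling that sets the bulk of genes equal between libraries). Ribosomal RNA genes were removed, and edgeR's quasi-likelihood test was run on the 11429 genes that exceeded 1 CPM in 4 or more libraries. A gene was called at a Benjamini-Hochberg adjusted p of at most 0.05. By this rule 5.07% of the genes tested were called, 2.50% higher and 2.56% lower in Cre+ cultures, and the groups did not overlap for 24.0%. The p-values measure the spread between these cultures only, since the labels do not say which animals or litters they came from. Nr1d1 itself (chr11:98767932-98775333) was at 2.35, 1.20 and 1.64 CPM in the Cre- cultures and at 1.00, 0.945 and 1.08 CPM in the Cre+ cultures. Every Cre+ culture was below every Cre- culture, but the log2 fold change of -0.77 ± 0.25 (SE) did not pass edgeR's test (adjusted p = 0.094). It was -0.50 without Cre- replicate 1 (adjusted p = 0.31 by edgeR's test) and passed at -0.98 without Cre- replicate 2 (adjusted p = 0.041 by edgeR's test). The count covers the whole gene, so reads from exons that Cre does not remove are included. The microglial markers Cd68, Trem2 and Tyrobp were abundant, with mean levels of 4002, 1614 and 2457 CPM in Cre- cultures. P2ry12 and Tmem119, which mark resident microglia at rest, were at 0.611 and 2.95 CPM. The 12 microglial markers together summed to between 9825 and 10210 CPM in Cre- and between 9715 and 10040 CPM in Cre+ cultures.

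Of the 9 complement genes, 7 passed the filter on low counts and 3 of these were called, beside 5.07% of all genes tested. C1qc was lower in Cre+ cultures, by 20.1% of the Cre- mean, while the anaphylatoxin receptors C3ar1 and C5ar1 were higher, by 16.0% and 35.2%. C1qa, C1qb, C3 and Cfp did not pass the test, and C4b and Cfb were below 1 CPM in every library. The median log2 fold change of the 7 tested genes was -0.07, beside 0.00 over all genes tested. The groups did not overlap for 3 of the 7, beside 24.0% of all genes tested. In RNA from whole cultures, fewer cells of a type and less RNA per cell cannot be told apart.

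**Figure D1:**
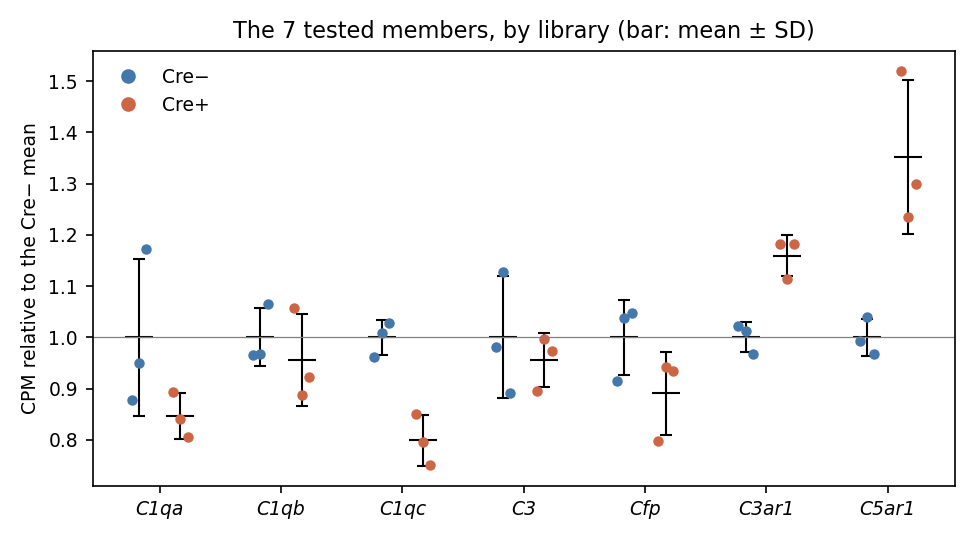
The 7 tested complement genes in each library, as CPM divided by the mean of the Cre- cultures (vertical axis). Points are libraries (blue Cre-, orange Cre+), and bars are the mean ± SD of 3. The groups are apart for C1qc, C3ar1 and C5ar1 and overlap for C1qa, C1qb, C3 and Cfp.

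Levels were compared between genes after division by the length of the exons, as CPM per kb. C1qb had the highest level, with a mean of 295 CPM per kb and a range of 268 to 322 over the 6 libraries. C3ar1 followed at 159.8 (143 to 175) and C5ar1 at 124 (102 to 161) CPM per kb. The ranges of these receptors overlapped, although C3ar1 was above C5ar1 within each of the 6 libraries. C1qc, at 46.3 CPM per kb (38.7 to 53.0), and C1qa, at 36.2 (31.6 to 46.0), also had overlapping ranges with the same order within every library. Cfp was at 19.4 CPM per kb (16.4 to 21.5) and C3 at 4.94 (4.51 to 5.70), each clear of its neighbours. Cfb and C4b came last, at 0.0983 and 0.0188 CPM per kb, with overlapping ranges.

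**Figure D2:**
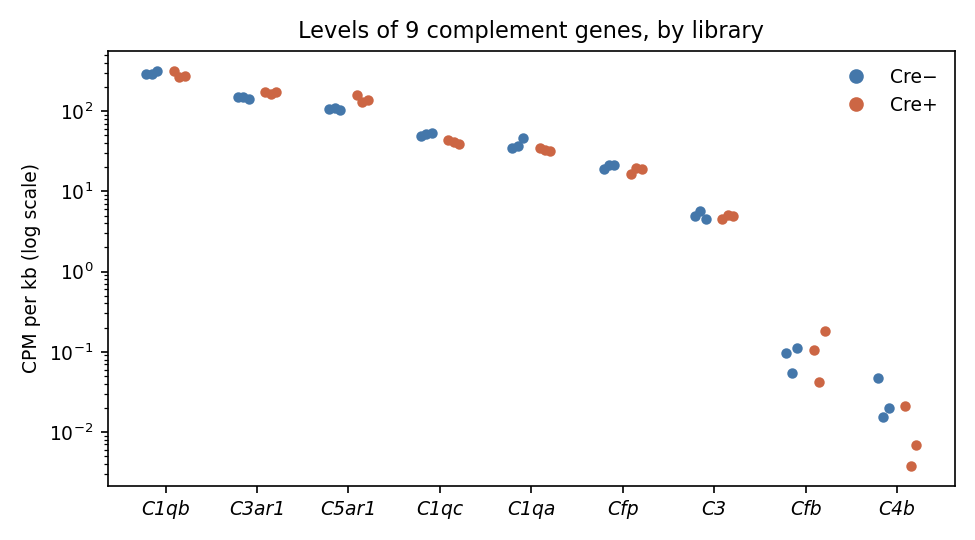
CPM per kb of exon (vertical axis, log scale) of the 9 complement genes in each library, ordered by mean. Blue points are Cre- and orange points Cre+ cultures, and C1qb at 295 CPM per kb and C4b at 0.0188 CPM per kb mark the ends of the order.

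C1q is built from 3 chains, A, B and C, whose genes lie side by side on the minus strand of chromosome 4, within 18.7 kb. All 3 chains had a lower mean in Cre+ cultures, and only C1qc was called. C1qc (ENSMUSG00000036896, chr4:136889804-136893065) was at 95.7, 100.4 and 102 CPM in Cre- cultures and at 84.6, 79.2 and 74.7 CPM in Cre+ cultures. No Cre+ culture reached the lowest Cre- culture. The means were 99.5 ± 3.39 and 79.5 ± 4.97 CPM (SD, n = 3 each). The log2 fold change was -0.32 ± 0.06 (SE), with a 95% interval of -0.44 to -0.20, and edgeR's test called it lower (adjusted p = 0.0031). It was also called with each library left out in turn, at -0.37 to -0.28.

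C1qa (ENSMUSG00000036887, chr4:136895917-136898803) was at 35.8, 38.8 and 47.9 CPM in Cre- cultures and at 36.5, 34.3 and 32.9 CPM in Cre+ cultures. One Cre- culture, replicate 3, stood above all others, and the groups overlapped. The log2 fold change was -0.24 ± 0.09 (95% interval -0.43 to -0.05), which did not pass edgeR's test (adjusted p = 0.15). Without Cre- replicate 1 it passed, at -0.33 (adjusted p = 0.044 by edgeR's test), and without the other libraries in turn it did not. C1qb (ENSMUSG00000036905, chr4:136880129-136886187) was at 317, 318 and 349.9 CPM in Cre- cultures and at 347, 291 and 303 CPM in Cre+ cultures. Here the groups overlapped, and the log2 fold change was -0.07 ± 0.06 (95% interval -0.20 to 0.06, adjusted p = 0.62 by edgeR's test). It ran from -0.14 without Cre+ replicate 1 to -0.01 without Cre+ replicate 2.

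The relation between the chains was also read within each library, where library scaling cancels. For every 100 reads of C1qb, the Cre- libraries held 30.2, 31.6 and 29.2 reads of C1qc, against 24.4, 27.2 and 24.6 in the Cre+ libraries. The groups did not overlap (exact 2-sided permutation test, p = 0.1, the smallest that 3 against 3 allows). Reads of C1qa for every 100 of C1qb ran from 11.3 to 13.7 in Cre- and from 10.5 to 11.8 in Cre+ libraries, and overlapped (exact permutation p = 0.2). C1qc reads for every 100 of C1qa were 267, 259 and 214 in Cre- and 232, 231 and 227 in Cre+ libraries. These also overlapped (exact permutation p = 0.4), so the ratios set C1qc apart from C1qb and not from C1qa. The summed level of the 3 chains was 449, 457 and 500.1 CPM in Cre- and 468, 405 and 411 CPM in Cre+ cultures. This sum was lower by 8.73% on average in Cre+ cultures, with overlapping groups (exact permutation p = 0.3). The difference was -5.58% without Cre- replicate 3 and -13.0% without Cre+ replicate 1.

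**Figure D3:**
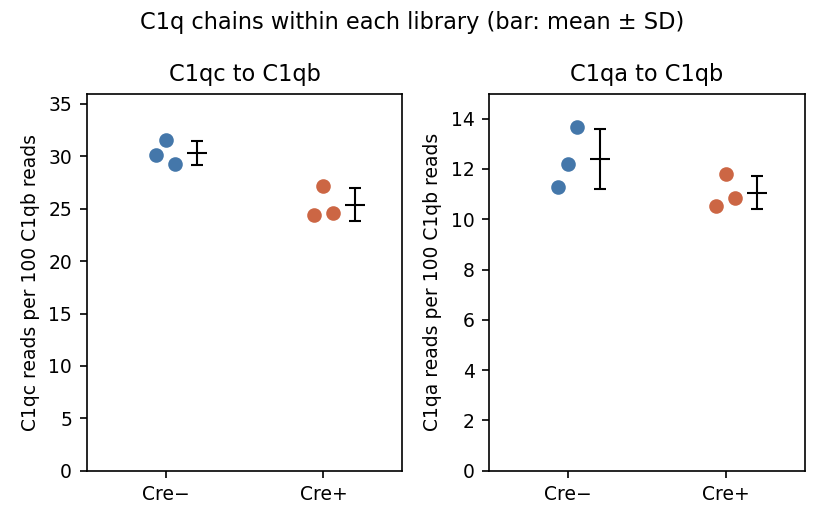
Reads of C1qc (left) and of C1qa (right) for every 100 reads of C1qb in each library (vertical axes start at 0). Points are libraries of Cre- (blue) and Cre+ (orange) cultures with the mean ± SD of 3 beside them. The C1qc ratio is 29.2 to 31.6 in Cre- and 24.4 to 27.2 in Cre+ libraries, while the C1qa ratios overlap.

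Shown are the sequences before the starts of C1qb, C1qc and C3ar1, since the neighbouring chains and a called receptor gene differed in outcome. They are from RefSeq on GRCm38.p6, read 5′ to 3′ on the minus strand, and end at the RefSeq start or at the end of the gene in the count files, whichever is further upstream. Capitals mark matches on either strand to AGGTCA (the half-site that REV-ERBα and other nuclear receptors can bind) or GAGGAA (the core bound by PU.1, a factor of myeloid cells). C1qb is chr4:136886201-136886450, C1qc is chr4:136893066-136893164 and C3ar1 is chr6:122856162-122856407.
C1qb: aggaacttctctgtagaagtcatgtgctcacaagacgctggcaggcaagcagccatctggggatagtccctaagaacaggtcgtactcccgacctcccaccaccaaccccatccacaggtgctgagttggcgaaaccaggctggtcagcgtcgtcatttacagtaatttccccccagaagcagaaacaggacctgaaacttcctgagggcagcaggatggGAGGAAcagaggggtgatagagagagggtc
C1qc: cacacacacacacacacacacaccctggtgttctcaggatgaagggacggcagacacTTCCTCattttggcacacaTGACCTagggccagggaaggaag
C3ar1: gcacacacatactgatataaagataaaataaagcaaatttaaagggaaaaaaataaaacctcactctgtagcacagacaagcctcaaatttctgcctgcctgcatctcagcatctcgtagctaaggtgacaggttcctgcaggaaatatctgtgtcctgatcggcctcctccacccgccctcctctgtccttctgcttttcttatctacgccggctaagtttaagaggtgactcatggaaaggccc

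Of the 9 genes, 6 had an entry in the promoter table. Over the 250 bases before each start, AGGTCA was present in 14.0% and GAGGAA in 23.3% of all 32851 starts, counting both strands. C1qc held one match to each, both on the reverse strand, at 174 to 169 and at 193 to 188 bases before its RefSeq start. C1qb held GAGGAA at 30 to 25 bases, and C3 held AGGTCA at 243 to 238 bases before its start. C5ar1, also a called receptor gene but not shown above, held a match to GAAANNGAA on the reverse strand at 66 to 58 bases. This motif, the element of interferon-regulated genes, was present in 7.13% of starts. Of the 250 bases before the RefSeq start of C5ar1, 202 lie inside the gene as counted here, and the match is among them. The E-box CACGTG, bound by the clock factors BMAL1 and CLOCK and present in 6.02% of starts, was found in none of the 6. C3ar1 and Cfp held none of the 4 motifs. These are matches of letters and say nothing of binding.

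C5ar1 and C3ar1, which encode receptors for the anaphylatoxins (the small fragments released from C3 and C5), were higher in Cre+ cultures. C5ar1 (ENSMUSG00000049130, chr7:16246743-16259540), which encodes the first C5a receptor, was at 269.9, 283 and 263 CPM in Cre- cultures and at 414, 336 and 353 CPM in Cre+ cultures. All Cre+ cultures were above all Cre- cultures, and Cre+ replicate 1 was the highest. The means were 272 ± 9.83 and 368 ± 40.8 CPM (SD, n = 3 each). The log2 fold change was 0.43 ± 0.06 (95% interval 0.30 to 0.57, adjusted p = 0.00076 by edgeR's test), and it was called with each library left out in turn, at 0.34 to 0.50.

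C3ar1 (ENSMUSG00000040552, chr6:122847138-122856161), which encodes the C3a receptor, was at 651, 645 and 616 CPM in Cre- cultures and at 754, 709 and 753 CPM in Cre+ cultures. The groups were again apart, with means of 637 ± 18.6 and 739 ± 25.4 CPM (SD, n = 3 each). The log2 fold change was 0.21 ± 0.04 (95% interval 0.12 to 0.30, adjusted p = 0.0072 by edgeR's test), and it was called with each library left out in turn, at 0.19 to 0.24. For every 100 reads of C3ar1 there were 41.5, 43.8 and 42.7 reads of C5ar1 in Cre- and 54.9, 47.3 and 46.9 in Cre+ libraries, so the ratio also separated the groups (exact permutation p = 0.1, the smallest possible). C5ar2, the second C5a receptor gene, lies next to C5ar1 within 25.0 kb and is described with the other receptors.

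Neither C3 nor Cfp was called. C3 (ENSMUSG00000024164, chr17:57203970-57228136), the protein on which the pathways meet, was at 25.5, 29.3 and 23.2 CPM in Cre- and at 23.3, 25.9 and 25.3 CPM in Cre+ cultures. The groups overlapped, and the log2 fold change of -0.07 ± 0.09 (95% interval -0.25 to 0.12, adjusted p = 0.76 by edgeR's test) became 0.03 without Cre- replicate 2. Cfp (ENSMUSG00000001128, chrX:20925454-20931555), which encodes properdin, the stabilizer of the alternative pathway convertase, was at 32.6, 37.0 and 37.3 CPM in Cre- and at 28.4, 33.6 and 33.3 CPM in Cre+ cultures. The lowest Cre- culture lay among the Cre+ cultures, and the log2 fold change was -0.17 ± 0.08 (95% interval -0.34 to 0.00, adjusted p = 0.27 by edgeR's test). It was -0.09 without Cre+ replicate 1 and -0.24 without Cre- replicate 1, not called in either case.

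C4b and Cfb were below the filter in both groups. C4b (ENSMUSG00000073418, chr17:34728380-34743882), a mouse C4 gene, had 23, 8 and 10 counts in Cre- and 13, 2 and 4 counts in Cre+ libraries. The ranges overlapped (exact permutation test of CPM on library totals, p = 0.3). C4b is 95.9% identical to C4a over 5378 aligned bases, so reads of one may be placed on the other. The sum of both genes was 0.491, 0.351 and 0.174 CPM in Cre- and 0.298, 0.0427 and 0.235 CPM in Cre+ libraries, and the groups overlapped (exact permutation p = 0.4). Cfb (ENSMUSG00000090231, chr17:34856374-34862518), which encodes factor B, had 24, 14 and 28 counts in Cre- and 33, 11 and 51 counts in Cre+ libraries, without separation (exact permutation p = 0.8). Of its exon bases 79.5% are shared on the same strand with Gm20547, an annotated gene with 0 counts in every library. Reads in the shared stretch may have been left uncounted. The CPM of the whole gene divided by only the 579 bases that are not shared gives 0.480 CPM per kb (0.204 to 0.874). That figure assumes that every counted read fell in those bases, which was not tested. With edgeR's filterByExpr in place of the filter, neither passed edgeR's test, at log2 fold changes of -1.27 for C4b (adjusted p = 0.38) and 0.37 for Cfb (adjusted p = 0.76). Without any filter these were -1.23 (adjusted p = 0.50 by edgeR's test) and 0.41 (adjusted p = 0.71).

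Of 53 other complement genes, 16 were tested and 5 were called, beside 5.07% of all genes tested. The calls were 4 higher (C2, Clu, Itgam and Itgax) and 1 lower (Fcna). The median log2 fold change of the 16 was 0.02. Their groups did not overlap for 7, beside 24.0% of all genes tested. C2, the protease of the classical convertase, had the largest log2 fold change of the 16: it was at 4.08, 4.20 and 3.25 CPM in Cre- and at 6.98, 7.81 and 6.39 CPM in Cre+ cultures. The log2 fold change was 0.88 ± 0.15 (95% interval 0.56 to 1.19, adjusted p = 0.0022 by edgeR's test), and it was called with each library left out in turn. C2 lies within 41.9 kb of Cfb on chromosome 17, and 46.9% of its exon bases are shared with other annotated genes. Fcna, a ficolin of the lectin pathway, was at 19.2, 18.1 and 20.8 CPM in Cre- and at 14.9, 16.0 and 15.5 CPM in Cre+ cultures (log2 fold change -0.32 ± 0.09, adjusted p = 0.041 by edgeR's test). The groups were apart, but the call was lost without 5 of the 6 libraries in turn. C1ra, the protease that C1q activates first, did not pass the test (log2 fold change -0.28 ± 0.16, adjusted p = 0.35 by edgeR's test).

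Among receptors and binding proteins, 8 of 11 genes were tested and 2 were called, both integrin alpha chains that pair with the product of Itgb2. Itgax, the alpha chain of complement receptor 4, was at 324, 331 and 319 CPM in Cre- and at 375, 407 and 395 CPM in Cre+ cultures. The groups were apart, and the log2 fold change was 0.27 ± 0.04 (95% interval 0.18 to 0.37, adjusted p = 0.0016 by edgeR's test), called with each library left out in turn. Itgam, the alpha chain of complement receptor 3, was at 101, 107 and 103 CPM in Cre- and at 118, 121 and 114 CPM in Cre+ cultures. Its log2 fold change of 0.18 ± 0.05 (adjusted p = 0.046 by edgeR's test) lost its call whenever 1 library was left out. Itgam shares 68.7% of its exon bases with Gm49368 on the same strand, which had 13 to 39 counts a library. The common beta chain Itgb2 was at 1750, 1859 and 1681 CPM in Cre- and at 1833, 1886 and 1963 CPM in Cre+ cultures, with overlapping groups (log2 fold change 0.10 ± 0.04, adjusted p = 0.20 by edgeR's test). Calr and Lrp1, which bind C1q and take part in uptake of C1q-coated material, had log2 fold changes of -0.03 and -0.06, and C5ar2 had 0.04. None of these passed the test.

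Among regulators, 4 of 19 genes were tested and 1 was called. Clu, whose product clusterin blocks the terminal complex, was at 3.30, 3.58 and 3.31 CPM in Cre- and at 5.04, 4.60 and 5.17 CPM in Cre+ cultures. The log2 fold change of 0.54 ± 0.14 (adjusted p = 0.043 by edgeR's test) was no longer called whenever 1 library was left out. Cr1l, which encodes the rodent regulator Crry, lay between 82.5 and 83.3 CPM in all 6 cultures. Cd59a, a membrane inhibitor of the terminal complex, had a log2 fold change of -0.03.

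The terminal components were scarcely present. Of 8 genes of the alternative and terminal pathway, only C8g was tested, at 1.79 to 3.17 CPM in Cre- and 2.05 to 3.77 CPM in Cre+ cultures, and it did not pass. C9, the pore-forming component, was at 0.506, 0.379 and 0.212 CPM in Cre- and at 0.0456, 0.0430 and 0.0893 CPM in Cre+ cultures, below the filter. C6 was at no more than 0.184 CPM in any library. Among the classical genes below the filter, C1rl was at 0.4005 to 0.950 CPM in Cre- and 0.192 to 0.269 CPM in Cre+ cultures, and C1rb was at 0.210 to 0.758 CPM over all 6 libraries. Of the 35 other complement genes below the filter with any count, 28 had a lower mean in Cre+ cultures (80.0%), beside 73.5% of all 32413 such genes.

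**Figure D4:**
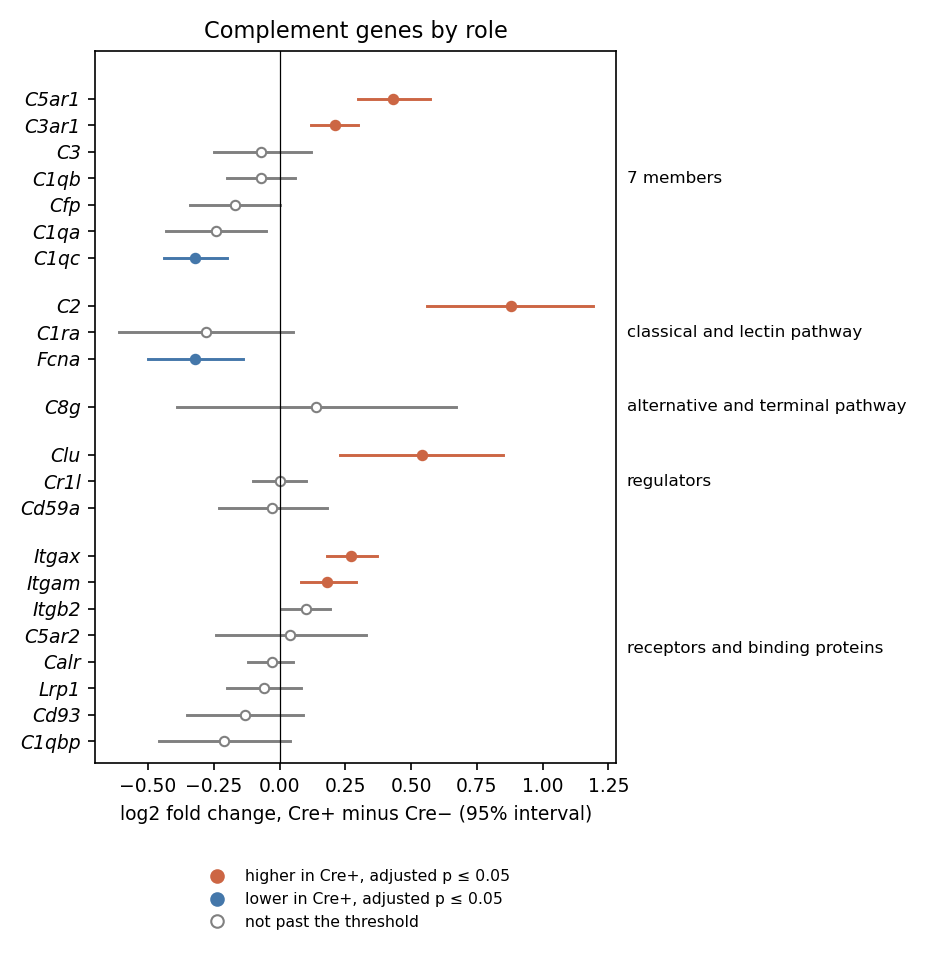
Log2 fold change of Cre+ against Cre- cultures (horizontal axis) with its 95% interval for the 7 members and 15 of the 16 other complement genes tested, grouped by role. Filled points passed edgeR's test at an adjusted p of at most 0.05 (orange higher, blue lower in Cre+), and open points did not. C2 at 0.88 is furthest to the right, while C1qc and Fcna, both at -0.32, are the called genes on the left.

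Complement acts beside other systems for the uptake of synapses and dying cells, and a list of 16 such genes was read in the same fit. Of these, 14 were tested and 6 were called, beside 5.07% of all genes tested. The calls were 2 higher (Mfge8 and Itgam, already given) and 4 lower (Axl, Gas6, Itgb5 and Cd47). The median log2 fold change was -0.04, and the groups did not overlap for 8 of the 14, beside 24.0% of all genes tested. Axl, a receptor tyrosine kinase for bridged apoptotic cells, was at 152, 152 and 141 CPM in Cre- and at 124, 128 and 126 CPM in Cre+ cultures (log2 fold change -0.24 ± 0.05, adjusted p = 0.0095 by edgeR's test). Gas6, which encodes its bridging ligand, was at 10.8, 11.0 and 10.3 CPM in Cre- and at 7.55, 7.62 and 7.76 CPM in Cre+ cultures (log2 fold change -0.49 ± 0.11, adjusted p = 0.013 by edgeR's test). Both genes had groups that were apart and were called with each library left out in turn, but Axl was not called under wider filters on low counts.

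Mfge8, which encodes a bridge between phosphatidylserine and integrins, was at 5607, 5648 and 5326 CPM in Cre- and at 5931, 6289 and 6586 CPM in Cre+ cultures (log2 fold change 0.18 ± 0.04, adjusted p = 0.017 by edgeR's test). Itgb5, an integrin beta chain, was at 104, 91.2 and 104 CPM in Cre- and at 86.9, 87.1 and 83.8 CPM in Cre+ cultures (log2 fold change -0.22 ± 0.06, adjusted p = 0.043 by edgeR's test). Cd47, the signal that spares cells from uptake, was at 132, 134 and 133 CPM in Cre- and at 119.9, 113 and 115 CPM in Cre+ cultures (log2 fold change -0.20 ± 0.05, adjusted p = 0.022 by edgeR's test). The groups were apart for all 3, yet the calls were lost without 3, 5 and 4 of the 6 libraries in turn for Mfge8, Itgb5 and Cd47. Trem2 and Tyrobp, a receptor and its signalling partner, did not pass, with log2 fold changes of 0.00 and -0.11 (adjusted p = 0.99 and 0.12 by edgeR's test).

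**Figure D5:**
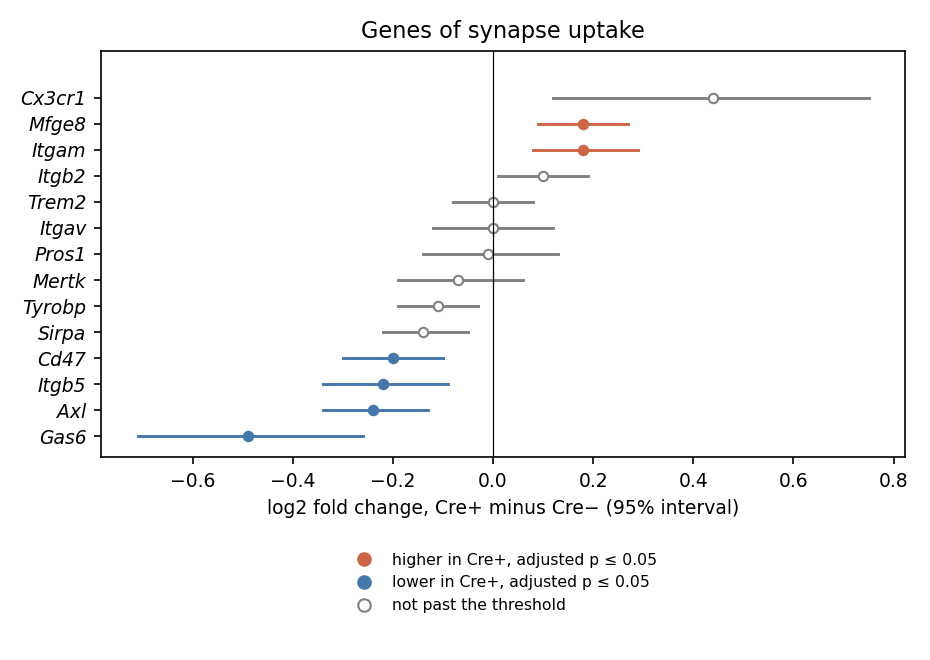
Log2 fold change of Cre+ against Cre- cultures (horizontal axis) with its 95% interval for the 14 tested genes of synapse uptake. Filled points passed edgeR's test (orange higher, blue lower in Cre+), with Mfge8 and Itgam at 0.18 above 0 and Gas6 at -0.49 furthest below it.

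Markers of other cells that could be present in such cultures were read beside these results. The 10 fibroblast and mural markers summed to 100.3 to 120.3 CPM in Cre- and to 47.8 to 54.9 CPM in Cre+ cultures, nearly all of it Postn. Postn was called lower in Cre+ cultures (log2 fold change -1.17, adjusted p = 7.9e-08 by edgeR's test). It kept this call with each library left out in turn. Without Postn the other 9, each with a mean below 1 CPM, summed to 2.38 to 3.99 and to 1.30 to 1.90 CPM. The 10 neuron markers, all with means of about 1 CPM or less, summed to 3.89 to 4.69 CPM in Cre- and 2.65 to 2.80 CPM in Cre+ cultures. None of these neuron markers, and none of the 9 fibroblast and mural markers left without Postn, passed the filter on low counts. Of all 32413 genes below that filter with any count, 73.5% had a lower mean in Cre+ cultures. The 10 neutrophil and monocyte markers summed to 12.4 to 13.5 CPM in Cre- and to 10.1 to 11.96 CPM in Cre+ cultures. Most of this was S100a8, with means of 9.64 and 7.29 CPM, which was not called (adjusted p = 0.072 by edgeR's test). Ccr2 and Cxcr2, the other tested markers of this list, had log2 fold changes of 0.08 and 0.20 and were not called. Sums for astrocytes (42.8 to 48.7 CPM over all libraries), oligodendrocytes (103 to 120.4 CPM) and endothelial cells (46.5 to 51.7 CPM) overlapped between the groups. In these lists 8, 6 and 7 of the 10 markers had means below 1 CPM. The sums were mostly Aldoc and Aldh1l1 for astrocytes, Mbp, Cnp, Mag and Cspg4 for oligodendrocytes, and Vwf and Flt1 for endothelial cells. Flt1 was called higher in Cre+ cultures (adjusted p = 0.025 by edgeR's test), a call lost without 5 of the 6 libraries in turn. Vwf and Kdr were lower and not called. Each sum thus describes a few genes. The part of these other cells in the results on C1qc, C3ar1 and C5ar1 was not tested.

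Finally, the 8439 tested genes that averaged 5 CPM or more were compared with the mean profile of C1qa, C1qb and C1qc over the 6 libraries, each centred on its own mean on the log2 scale. The genes nearest to it were Rhov (root mean square difference 0.024), Sdf2l1 (0.040) and Mbd3 (0.040), against a median of 0.170 over all genes compared. The chains themselves differed from their mean profile by 0.063 (C1qa), 0.081 (C1qb) and 0.074 (C1qc). Rhov, Sdf2l1 and Mbd3 were picked as the smallest of 8439 differences, so nothing is drawn from their being nearer than the chains. The likeness rests on 6 libraries that share their groups and depths and is a description only.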

How the data were processed

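RNA of 3 Cre- and 3 Cre+ microglia cultures was sequenced by the authors after SMARTer amplification of cDNA. Per the submitters' processing notes, reads were aligned to GRCm38 with STAR 2.7.9a and counted with featureCounts 2.0.3, and the methods of the study give other versions. The strand setting of counting is not given in the sources used here. The deposited counts are whole reads per Ensembl gene, without normalization or filter. The CPM deposited by the authors are these counts relative to the library total, and the deposited FPKM divide them by gene length. Both served only to check units, and every value here was computed from the counts.

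Biotypes and longest transcripts came from GENCODE M21, which matched 55227 of 55487 genes. The 356 rRNA and Mt_rRNA genes were removed, and the test was run, as the methods of the study filter genes, on the 11429 that exceeded 1 CPM in 4 or more libraries, with the quasi-likelihood test of edgeR 4.0.16 in R 4.3.3 (TMM factors 0.986 to 1.01, no covariate). A standard error is the fold change on the log2 scale over the root of its F statistic. The coefficient of variation at the common dispersion was 10.0%. The test was also run on simulated counts with known changes and the same dispersion for every gene. Such counts cannot show how it handles dispersion that differs between genes, and no result here rests on them. Libraries of a group differed by more than counting noise (chi-square per degree of freedom 18.8 to 25.8). Single quantities were compared by exact 2-sided permutation tests with scipy 1.17.1. Near-identical copies were searched among the longest transcripts with blastn 2.17.0, and shared exon bases were counted from the exon columns of the files.

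Named were the 9 genes, Nr1d1, every called gene of the complement and synapse lists, the 3 uncalled genes of each list with the highest CPM per kb, and the 3 genes nearest to the C1q profile. C5ar2 and the cell type markers fall outside this rule. One gene that the rule takes is not reported here. The 9 genes and all lists were chosen with earlier results of these data known. Other settings tried were library totals in place of TMM, the size factors of DESeq2, limma 3.58.1 voomWithQualityWeights, DESeq2 1.42.0, edgeR's filterByExpr, no filter, a replicate block, C4a added to C4b, and leaving out each library.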

Additional observations from a re-analysis of the deposited data

How the results depend on the processing

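C1qc, C3ar1 and C5ar1 kept their calls and directions under all alternatives run. C1qb and C3 changed sign without a filter (0.01 each), and C3 ran from -0.14 to 0.03 with 1 library left out (0.03 without Cre- replicate 2), none of them called. Log2 fold changes shifted up by a median of 0.04 with filterByExpr and of 0.08 without a filter. C1qa ranged from -0.33 to -0.11 with 1 library left out and was called only without Cre- replicate 1 (-0.33). The number of other complement genes called ranged from 2 to 3 with 1 library left out, against 5, and synapse uptake genes from 2 to 5, against 6. With filterByExpr, 3 synapse uptake genes were called. Fcna, Axl, Itgb5 and Cd47 lost their calls under filterByExpr and without a filter. C9 was called under both wider filters (log2 fold change -2.55 and -2.51). Itgb2 was called without a filter (log2 fold change 0.18, adjusted p = 0.017 by edgeR's test) and under no other setting. All genes called numbered 579, but 886 with DESeq2, 1528 without a filter and 317 to 448 with 1 library left out. The causes were not tested.

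The replicate numbers did not pair the libraries: deviations from the group means of same-numbered libraries correlated at 0.000741, -0.0425 and -0.0643. With a replicate block, 430 genes were called in all, with the same 3 members, 3 other complement genes (Fcna, Clu and Itgam lost their calls) and 3 synapse uptake genes. C4b and Cfb, at 2 to 51 counts a library, entered the test under the wider filters only and were not called there.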

Other observations

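The C1q genes, C3ar1, C5ar1, C2, Itgam and Itgax were set beside their neighbours on the chromosome. Within 100 kb of the C1q genes, Zbtb40 was the only other gene tested, with a log2 fold change of 0.00. Of 3 genes tested near C3ar1, 7 near C5ar1, 8 near C2 and 7 near Itgam and Itgax, 0 were called by edgeR's test, with log2 fold changes from -0.49 to 0.18. At an unadjusted p under 0.05 there was 1 near C5ar1 and 3 near C2. DESeq2 called 1 gene, near C2, and limma's voomWithQualityWeights called 0.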
